A study of Mus musculus with 6 samples.

Results

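The 40 genes described here encode proteins that drive cell division: the replication machinery, the enzymes that supply deoxynucleotides, the cyclins and kinases that time each phase, and the apparatus that separates chromosomes. They were taken by gene symbol, with replication, S phase and mitosis as the theme, from a table of 28601 genes, and all 40 were found. Liver RNA had been sequenced from 3 male mice carrying the Cys52Ser substitution in peroxiredoxin 1 (PRDX1 Cys52Ser) and from 3 wild-type (WT) male mice. Both genotypes received CDAHFD, a choline-deficient, amino acid-defined, high-fat diet that produces steatohepatitis and fibrosis, for 8 weeks from 8 weeks of age. Peroxiredoxin 1 reduces hydrogen peroxide through a reactive cysteine, and Cys52Ser replaces a cysteine with serine. Whether the mice were homozygous, how the allele was made and the strain are not given in the sources used here, and no mice on a control diet were analysed here. The treatment field instead counts 11, 12 and 13 weeks in Cys52Ser and 8, 9 and 10 weeks in WT; if that is literal, genotype and time on the diet cannot be told apart.

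A resting adult liver divides rarely, and most hepatocytes sit outside the cycle until injury or loss of tissue brings them back. Entry starts with D-type cyclins, which relieve the retinoblastoma family's hold on E2F transcription factors, and E2F then switches on the genes of DNA replication. Later, the MuvB complex with B-MYB and FOXM1 turns on the genes of G2 and mitosis. Dividing immune, stellate, bile duct and endothelial cells add to the same transcripts in whole liver. In such bulk RNA, a change in the number of cycling cells and a change in RNA per cell cannot be told apart.

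Total counts per library ranged from 53318196 to 73900923. Levels between libraries are given as CPM, counts scaled to a common library size with TMM factors, and levels between genes as FPKM, which also divides by transcript length. The TMM factors were 0.885, 0.963 and 0.814 in Cys52Ser replicates 1, 2 and 3, against 1.21, 1.14 and 1.05 in WT replicates 1, 2 and 3. With library totals in place of TMM, all genes together had a median log2 fold change of -0.35, and calls came to 293 higher and 2724 lower, against 469 higher and 459 lower with TMM. Prdx1 itself was 858, 660.4 and 819 CPM in Cys52Ser and 863, 919 and 977 CPM in WT (edgeR log2 fold change -0.24, adjusted p = 0.421). In deposited FPKM it was 218, 184 and 197 in Cys52Ser and 305, 304 and 295 in WT. Its groups did not overlap on either scale, as for 29.6% of all tested genes in CPM and 42.4% in FPKM. These levels do not check the genotype, since counts per gene do not show an exchanged amino acid.

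All 40 genes were expressed and passed the filter on low counts, which 18648 genes passed. At an adjusted p under 0.05 (edgeR, quasi-likelihood, with Benjamini-Hochberg correction over 18648 genes), 2 of the 40 were higher in Cys52Ser and 0 were lower. These were Tk1 and Rrm2, both of them enzymes of deoxynucleotide supply. Of all tested genes, 2.52% were called higher and 2.46% lower, 4.98% in all, so a share of 5% of the list is near the background and is not a property of the list. At an unadjusted p under 0.05, 9 of the 40 were higher and 0 lower, against 11.3% and 11.1% of all genes. DESeq2 called 4 of the 40 higher and 0 lower, adding Mcm5 and Rrm1. It also called more genes over the whole table, 2493 in either direction against 928 with edgeR. Of the 40, 31 had a positive log2 fold change, against 49.7% of all tested genes, and 17 did without Cys52Ser replicate 2. The median log2 fold change of the 40 was 0.27, against -0.0032 over all tested genes, and it was -0.12 without Cys52Ser replicate 2 and -0.052 with library totals alone.

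The 40 genes fell into genes of G1 to S phase and genes of G2 and mitosis, which differed in how the 6 libraries were ordered. Of the 18 genes of G1, licensing and S phase, 17 had a positive log2 fold change, with a median of 0.40, and 16 still did without Cys52Ser replicate 2, with a median of 0.30. Of the 22 genes of G2 and mitosis, 14 had a positive log2 fold change with a median of 0.17, but 1 of 22 did without that library, with a median of -0.41. Scaled by library totals alone, the log2 fold changes of Cdc45, Pcna and Tyms turned to -0.20, -0.16 and -0.0100, and those of 10 genes of G2 and mitosis turned negative as well. Neither median carries a test. The heat map of the 40 genes by library shows the blocks.

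**Figure D1:**
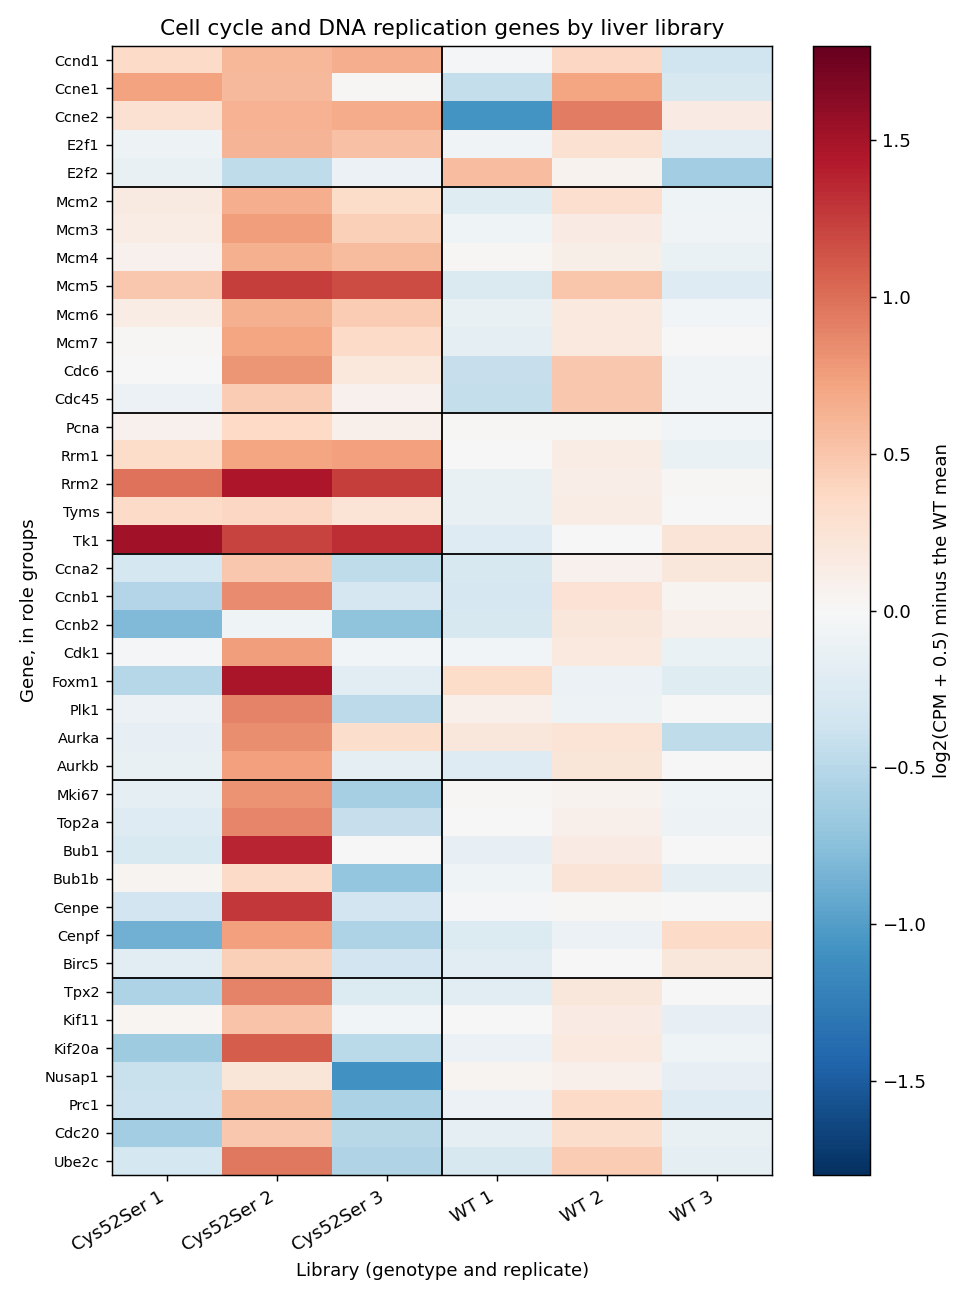
Heat map of log2(CPM + 0.5) minus the WT mean for the 40 genes (rows, in role groups divided by lines) in the 3 Cys52Ser and 3 WT libraries (columns); red is above the WT mean and blue below. The rows of Rrm2 and Tk1 are red in all 3 Cys52Ser columns, while most rows from Ccna2 down are red, among the 3 Cys52Ser columns, in replicate 2 alone.

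Tk1 and Rrm2, the 2 genes called, are described first with the other genes of the S phase clamp and nucleotide group. Thymidine kinase 1, the product of Tk1, phosphorylates salvaged thymidine for DNA synthesis, and its transcript normally accumulates around S phase. Tk1 was measured at 32.2, 26.2 and 28.5 CPM in Cys52Ser replicates 1, 2 and 3, against 9.28, 11.01 and 13.03 CPM in WT replicates 1, 2 and 3. Every Cys52Ser library lay above every WT library, with a wide gap between the lowest Cys52Ser and the highest WT value. Mean levels were 29.0 ± 3.01 CPM in Cys52Ser and 11.1 ± 1.88 CPM in WT (SD, n = 3 each), a 2.61-fold difference (log2 fold change 1.38 ± 0.16 SE, edgeR adjusted p = 0.0165).

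Rrm2 encodes the small subunit of ribonucleotide reductase, the enzyme that makes deoxyribonucleotides from ribonucleotides, and this subunit carries the radical that the reaction needs. Its level was 23.2, 32.5 and 28.1 CPM in Cys52Ser replicates 1, 2 and 3, against 10.5, 12.5 and 11.6 CPM in WT replicates 1, 2 and 3. The groups did not overlap, and the spread within WT was small. Means of 27.9 ± 4.62 CPM in Cys52Ser and 11.5 ± 1.02 CPM in WT (SD, n = 3 each) gave a 2.42-fold difference (log2 fold change 1.28 ± 0.15 SE, edgeR adjusted p = 0.0168). Rrm1, the large subunit, which binds the substrates, moved less, at 27.2, 35.7 and 36.3 CPM in Cys52Ser replicates 1, 2 and 3, against 21.4, 23.7 and 19.8 CPM in WT replicates 1, 2 and 3. Its groups did not overlap either, but it did not pass over all genes (log2 fold change 0.61, 95% confidence interval 0.28 to 0.95, edgeR adjusted p = 0.0558); it passed with DESeq2 (adjusted p = 0.00782) and where genes under a mean of 1 CPM were left out (edgeR adjusted p = 0.0450).

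Tyms, thymidylate synthase, makes thymidylate from deoxyuridylate, the step parallel to the salvage by Tk1. It stood at 12.7, 12.97 and 11.8 CPM in Cys52Ser replicates 1, 2 and 3, against 8.96, 10.9 and 9.82 CPM in WT replicates 1, 2 and 3, without overlap but with a small difference (log2 fold change 0.34, edgeR adjusted p = 0.199). Pcna, the sliding clamp that holds DNA polymerases on the template, was 54.8, 66.7 and 55.3 CPM in Cys52Ser replicates 1, 2 and 3, against 52.6, 52.7 and 50.2 CPM in WT replicates 1, 2 and 3. Its Cys52Ser values began just above the highest WT value, and the difference did not pass (log2 fold change 0.18, edgeR adjusted p = 0.374). These 5 genes were thus the 5 of 40 whose groups did not overlap, all higher, which is 12.5% of the list against 14.4% of all tested genes.

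**Figure D2:**
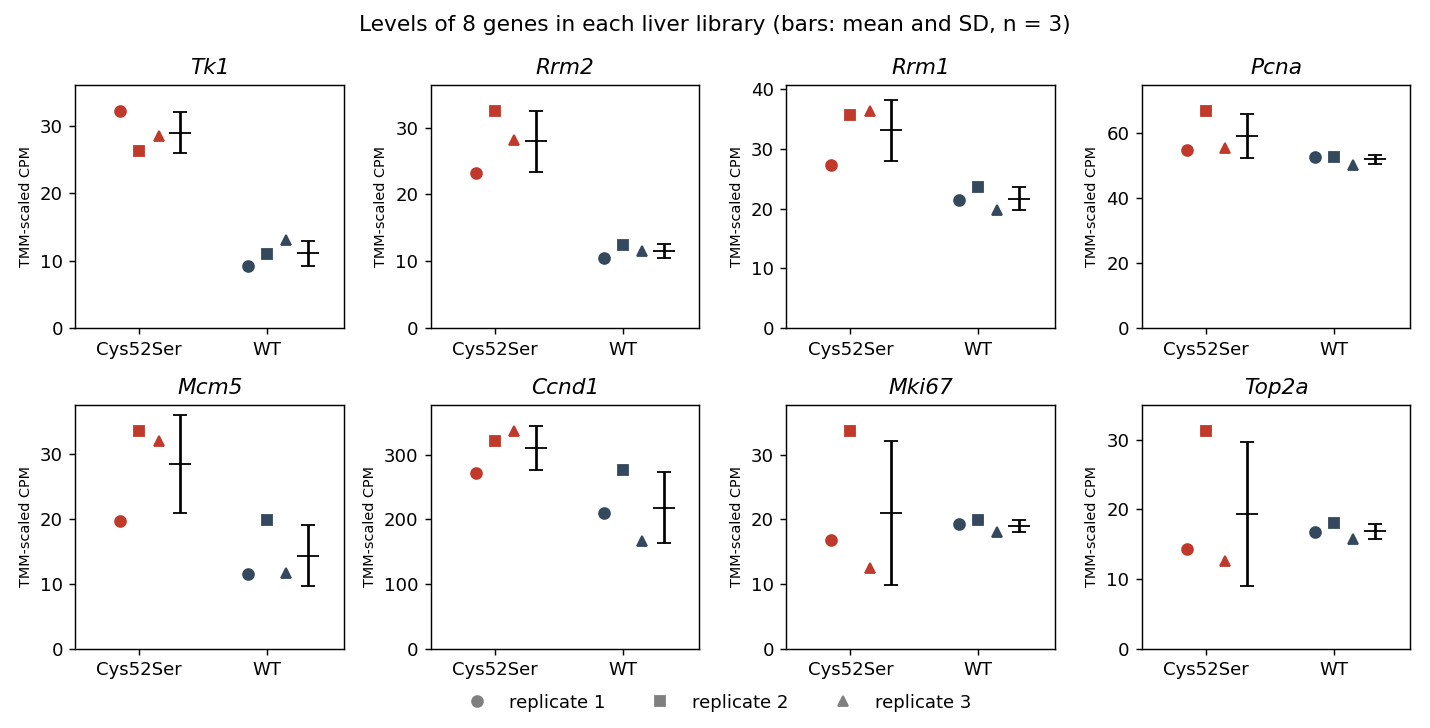
TMM-scaled CPM (vertical axis, from 0) of 8 genes in each Cys52Ser library (red, left) and WT library (dark, right); marker shape gives the replicate and the black bar the mean and SD of 3 mice. Tk1 and Rrm2 separate the genotypes in all libraries, whereas Mki67 and Top2a are high in Cys52Ser replicate 2 and below every WT library in replicates 1 and 3.

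The order of the levels held on the deposited FPKM scale, which carries no TMM scaling, for Tk1 and Rrm2 but not for the other 3. Tk1 had 4.79, 4.27 and 4.001 FPKM in Cys52Ser against 1.91, 2.12 and 2.29 FPKM in WT, and Rrm2 had 6.49, 9.95 and 7.40 FPKM in Cys52Ser against 4.06, 4.54 and 3.84 FPKM in WT, again with no overlap. Rrm1 had 1.91, 2.75 and 2.40 FPKM in Cys52Ser against 2.08, 2.16 and 1.65 FPKM in WT, so that Cys52Ser replicate 1 fell inside the WT range. Both calls passed in limma on log2(FPKM + 0.5), with log2 differences of 0.89 for Tk1 (adjusted p = 0.0132) and 0.84 for Rrm2 (adjusted p = 0.0231). The groups did not overlap in FPKM for 3 of the 40 genes, 2 higher and 1 lower, against 42.4% of all tested genes in either direction.

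With 1 library left out, log2 fold changes ran from 1.22 to 1.46 for Tk1 and 1.15 to 1.39 for Rrm2, while the calls depended on which library was left out. Tk1 was not called without Cys52Ser replicate 1 (log2 fold change 1.301, edgeR adjusted p = 0.0607), Cys52Ser replicate 3 (adjusted p = 0.0621) or WT replicate 2 (adjusted p = 0.0561). Rrm2 was not called without Cys52Ser replicate 3 (log2 fold change 1.27, edgeR adjusted p = 0.0660) or WT replicate 2 (adjusted p = 0.0561). Without Cys52Ser replicate 2, the library in which mitotic genes were high, both were called, at log2 fold changes of 1.45 for Tk1 (edgeR adjusted p = 0.0319) and 1.15 for Rrm2 (adjusted p = 0.0384).

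The value of Tk1 carries a further limit from its position. Tk1 (ENSMUSG00000025574, GRCm38 chromosome 11, 117815526 to 117826092, minus strand) lies wholly inside Gm20708, a coding gene on the plus strand, and shares 169 bases with Afmid, which encodes kynurenine formamidase. Both of these plus-strand genes, looked up after the values of Tk1 were seen, were also higher. Gm20708 was 19.1, 9.84 and 11.5 CPM in Cys52Ser and 2.84, 2.89 and 3.64 CPM in WT (log2 fold change 2.11, edgeR adjusted p = 0.0185), and Afmid was 75.7, 57.5 and 68.4 CPM in Cys52Ser and 15.7, 17.5 and 26.4 CPM in WT (log2 fold change 1.76, adjusted p = 0.0169). The libraries mark strand, but the sources used here do not say whether counting used it, and the part of reads from the plus strand in Tk1 was not tested. Rrm2 (ENSMUSG00000020649, chromosome 12, 24708241 to 24714146, plus strand) overlaps no other annotated gene.

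Upstream of replication stand the genes of G1 and of the step into S phase. Ccnd1, cyclin D1, was by far the most abundant of the 40, with a mean of 51.6 FPKM in Cys52Ser and 46.5 FPKM in WT, above Pcna at 19.4 FPKM in Cys52Ser and 21.6 FPKM in WT. In CPM it was 272, 322 and 336 CPM in Cys52Ser replicates 1, 2 and 3, against 210.3, 276 and 167 CPM in WT replicates 1, 2 and 3. The lowest Cys52Ser library fell just below WT replicate 2, and the difference did not pass (log2 fold change 0.51, 95% confidence interval 0.041 to 0.98, edgeR adjusted p = 0.187).

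E2f1, an activator of replication genes, stood at 7.55, 12.7 and 11.9 CPM in Cys52Ser replicates 1, 2 and 3, against 7.72, 9.93 and 6.96 CPM in WT replicates 1, 2 and 3, with overlapping groups (log2 fold change 0.39, edgeR adjusted p = 0.402). Ccne1, cyclin E1, which activates CDK2 at the start of S phase, was 7.65, 6.88 and 4.52 CPM in Cys52Ser replicates 1, 2 and 3, against 3.17, 7.58 and 3.52 CPM in WT replicates 1, 2 and 3; here WT replicate 2 lay among the Cys52Ser values. The second cyclin E gene, Ccne2, ranged even more widely within WT, at 1.76, 8.46 and 4.78 CPM in replicates 1, 2 and 3. E2f2 was the 1 member of these 18 with a negative log2 fold change, -0.35 (edgeR adjusted p = 0.640).

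The genes that license origins and unwind DNA all had positive log2 fold changes, and none passed over all genes. Mcm2 to Mcm7 encode the ring of the replicative helicase, which CDC6 helps to load and CDC45 helps to activate. The 8 values lay between 0.13 for Cdc45 and 0.99 for Mcm5, with a median of 0.41, which was 0.07 with library totals alone. The products of Mcm2 to Mcm7 act as 1 ring, and the 8 genes are commonly switched on together, so they are not independent observations.

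Mcm5 had the largest difference of the helicase genes, at 19.7, 33.6 and 32.1 CPM in Cys52Ser replicates 1, 2 and 3, against 11.5, 19.8 and 11.7 CPM in WT replicates 1, 2 and 3. Cys52Ser replicate 1 and WT replicate 2 were nearly equal, so the groups overlapped, and the difference did not pass (log2 fold change 0.99, edgeR adjusted p = 0.0962; DESeq2 adjusted p = 0.00463). Mcm6 was 32.4, 45.9 and 40.5 CPM in Cys52Ser replicates 1, 2 and 3, against 26.7, 33.3 and 28.5 CPM in WT replicates 1, 2 and 3 (log2 fold change 0.43, edgeR adjusted p = 0.154). Mcm3 was 17.1, 26.7 and 21.2 CPM in Cys52Ser replicates 1, 2 and 3, against 14.8, 17.3 and 14.9 CPM in WT replicates 1, 2 and 3 (log2 fold change 0.47, edgeR adjusted p = 0.170). In each of the 3, Cys52Ser replicate 2 was the highest library and WT replicate 2 the highest of its group. The mean log2 level of the 8 genes, relative to the WT mean, was 0.12, 0.74 and 0.45 in Cys52Ser replicates 1, 2 and 3, against -0.21, 0.29 and -0.086 in WT replicates 1, 2 and 3.

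**Figure D3:**
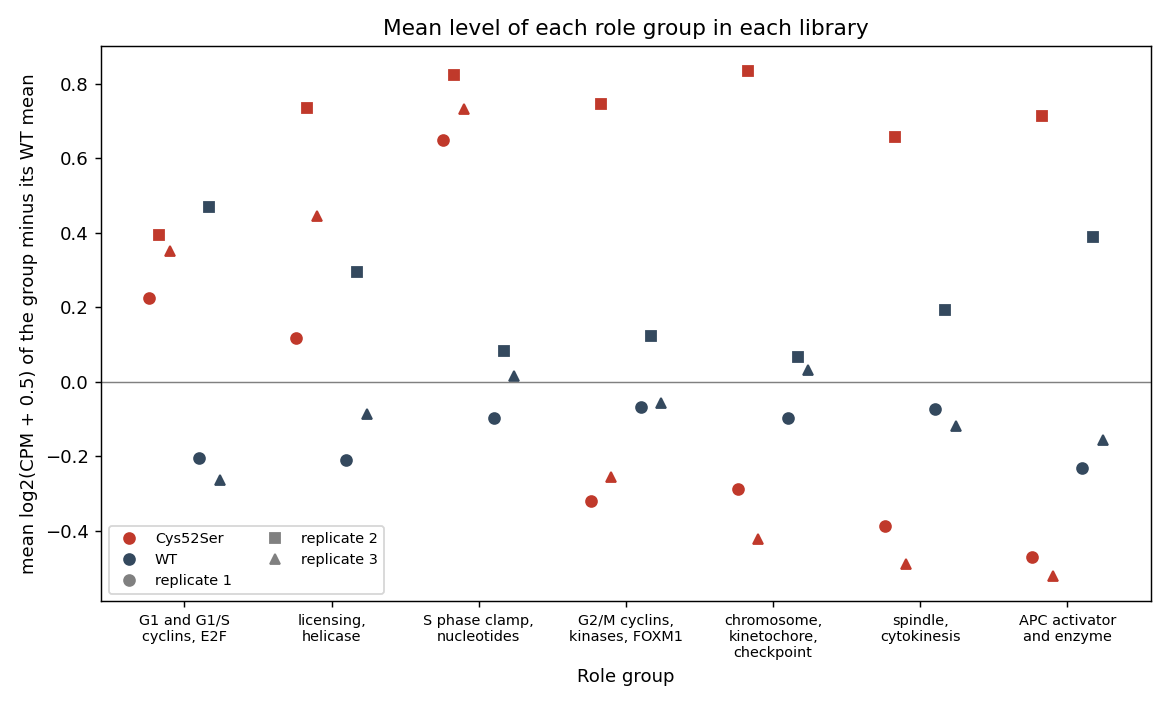
Mean log2(CPM + 0.5) of the genes of each role group, minus the mean of the 3 WT libraries (vertical axis), by role group; red is Cys52Ser, dark is WT, and marker shape gives the replicate. In the S phase clamp and nucleotide group the Cys52Ser libraries stand at 0.65, 0.82 and 0.73, above all WT libraries, whereas in the 4 groups to the right only Cys52Ser replicate 2 does.

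Genes of G2 and mitosis showed no called difference between the genotypes and a wide spread within Cys52Ser. Cys52Ser replicate 2 was the highest of the 6 libraries for 21 of these 22 genes, the exception being Ccnb2, and for 32 of all 40. Over all tested genes that library was highest for 14.7%. It was at least 2-fold above the mean of Cys52Ser replicates 1 and 3 for 14 of the 22 genes and for 0 of the other 18, against 11.1% of all tested genes. In the same library 5 of 7 cholangiocyte markers were also at least 2-fold above that mean. So was 1 of 9 stellate cell and myofibroblast markers, Acta2, while the median ratio of those 9 was 0.99. The part of these cells in the result was not tested.

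Mki67, whose product Ki-67 coats mitotic chromosomes and is the usual mark of cycling cells, was 16.8, 33.6 and 12.5 CPM in Cys52Ser replicates 1, 2 and 3, against 19.2, 19.8 and 18.0 CPM in WT replicates 1, 2 and 3. Top2a, the topoisomerase that untangles chromosomes, was 14.3, 31.3 and 12.5 CPM in Cys52Ser replicates 1, 2 and 3, against 16.8, 18.0 and 15.7 CPM in WT replicates 1, 2 and 3. In both, Cys52Ser replicate 2 was the highest library and Cys52Ser replicates 1 and 3 were the lowest, so that the WT libraries lay between them. The log2 fold changes were 0.14 for Mki67 (95% confidence interval -0.67 to 0.95, edgeR adjusted p = 0.860) and 0.20 for Top2a (adjusted p = 0.787). Without Cys52Ser replicate 2 they turned to -0.38 (adjusted p = 0.251) and -0.33 (adjusted p = 0.241).

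Among the mitotic kinases and cyclins, Cdk1, the kinase that starts mitosis, was 8.75, 15.4 and 8.55 CPM in Cys52Ser replicates 1, 2 and 3, against 8.56, 10.1 and 8.14 CPM in WT replicates 1, 2 and 3. Foxm1, the transcription factor of G2 and mitosis genes, had the widest gap, at 3.12, 13.9 and 4.04 CPM in Cys52Ser replicates 1, 2 and 3, against 6.004, 4.31 and 3.95 CPM in WT replicates 1, 2 and 3, a ratio of 3.89 between Cys52Ser replicate 2 and the mean of the other 2 Cys52Ser libraries. Aurka, a kinase of the spindle poles, was 3.47, 7.32 and 4.94 CPM in Cys52Ser replicates 1, 2 and 3, against 4.55, 4.72 and 2.70 CPM in WT replicates 1, 2 and 3. None of the 3 passed, with log2 fold changes of 0.28, 0.56 and 0.39 (edgeR adjusted p = 0.574, 0.626 and 0.567), and without that library Cdk1 and Foxm1 turned to -0.048 and -0.41.

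Ccnb2, cyclin B2, had the most negative log2 fold change of the 40, -0.55 (edgeR adjusted p = 0.283). It was 4.10, 7.08 and 4.32 CPM in Cys52Ser replicates 1, 2 and 3, against 6.03, 8.69 and 7.99 CPM in WT replicates 1, 2 and 3, so the groups overlapped in CPM through Cys52Ser replicate 2 and WT replicate 1. On the FPKM scale it was 2.07, 3.92 and 2.06 FPKM in Cys52Ser against 4.23, 5.71 and 4.79 FPKM in WT, with the 3 Cys52Ser libraries below all WT libraries. A processed copy, Ccnb2-ps, had 378 counts over all libraries and may share reads with it. The remaining members of this group, Ccna2, Ccnb1, Plk1 and Aurkb, had log2 fold changes between -0.051 and 0.25.

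Kinetochore and checkpoint genes also had their highest level in Cys52Ser replicate 2. Bub1, a checkpoint kinase at kinetochores, was 1.74, 6.53 and 2.18 CPM in Cys52Ser replicates 1, 2 and 3, against 1.95, 2.498 and 2.20 CPM in WT replicates 1, 2 and 3. Cenpe, a kinesin motor of the kinetochore, was 2.49, 8.66 and 2.51 CPM in Cys52Ser replicates 1, 2 and 3, against 3.21, 3.37 and 3.33 CPM in WT replicates 1, 2 and 3, with WT values within a narrow range. Cys52Ser replicate 2 alone stood above WT for both, and neither passed (log2 fold changes 0.65 and 0.46, edgeR adjusted p = 0.520 and 0.653). The related genes Bub1b, Cenpf and Birc5, which encodes survivin, had log2 fold changes of -0.055, -0.082 and -0.0035; all 3 had their highest value in Cys52Ser replicate 2.

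Of the spindle and cytokinesis genes, Nusap1, which binds spindle microtubules, was 3.81, 6.14 and 2.16 CPM in Cys52Ser replicates 1, 2 and 3, against 5.41, 5.54 and 4.66 CPM in WT replicates 1, 2 and 3. Kif11, the motor that pushes spindle poles apart, was 5.89, 8.44 and 5.53 CPM in Cys52Ser replicates 1, 2 and 3, against 5.71, 6.46 and 5.16 CPM in WT replicates 1, 2 and 3. Kif20a, a kinesin of cytokinesis, was 4.07, 14.6 and 4.57 CPM in Cys52Ser replicates 1, 2 and 3, against 6.12, 7.53 and 6.22 CPM in WT replicates 1, 2 and 3. The lowest Cys52Ser value was below the lowest WT value for Nusap1 and Kif20a, and the highest Cys52Ser value above the highest WT value for all 3. Their adjusted p-values were 0.622, 0.666 and 0.841 (edgeR). Tpx2 and Prc1, which organise spindle microtubules, had log2 fold changes of 0.17 and -0.063.

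Exit from mitosis needs the anaphase-promoting complex, which CDC20 activates and which works with the ubiquitin-conjugating enzyme UBE2C. Cdc20 was 4.94, 11.3 and 5.43 CPM in Cys52Ser replicates 1, 2 and 3, against 6.91, 9.99 and 7.15 CPM in WT replicates 1, 2 and 3. Ube2c was 5.31, 13.4 and 4.46 CPM in Cys52Ser replicates 1, 2 and 3, against 5.44, 9.40 and 5.89 CPM in WT replicates 1, 2 and 3. The groups overlapped for both, and each group had its highest value in replicate 2 (log2 fold changes -0.15 and 0.16, edgeR adjusted p = 0.844 and 0.880).

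**Figure D4:**
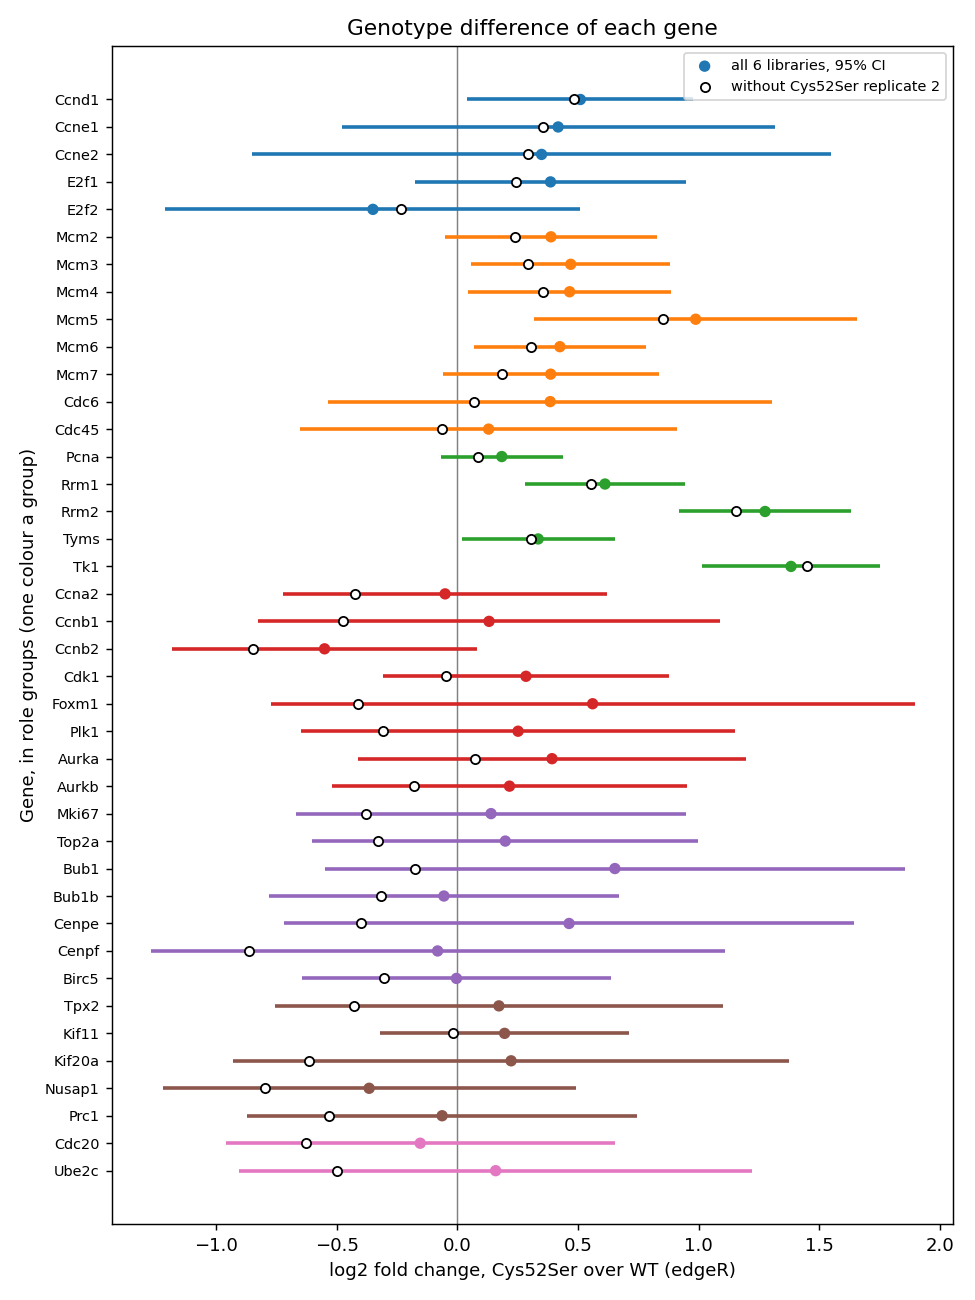
Log2 fold change of Cys52Ser over WT (horizontal axis) for each of the 40 genes (rows, one colour per role group), with filled points and lines for the edgeR estimate and 95% confidence interval over all 6 libraries and open points for the estimate without Cys52Ser replicate 2. The intervals of Tk1 and Rrm2 lie farthest above 0, with their open points close by. Those of Rrm1, Tyms, Ccnd1, Mcm3, Mcm4, Mcm5 and Mcm6 also lie above 0. Of the 22 open points from Ccna2 down, 21 lie below 0.

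Promoter sequence is shown for the 3 genes of smallest p, for Mcm5 and for Bub1 and Cenpe. Of the genes with a window used here, the last 2 had the highest ratio of Cys52Ser replicate 2 to the other Cys52Ser libraries. Mcm5, Bub1 and Cenpe were chosen after their values were seen. RefSeq windows on GRCm38, from 250 bases before to 50 bases after the annotated start, were found for 32 of the 40 genes; Aurkb, Ccna2, Ccnd1, Ccne2, Foxm1, Kif20a, Mcm4 and Tpx2 had none. Capitals mark any of 3 sets of letters on either strand: TTTCCCGC, TTTCGCGC, TTTGCCGC and TTTGGCGC, the core that E2F factors bind; TTTGAA and TTCGAA, the cell cycle genes homology region (CHR) that MuvB binds; and CCAAT, which NF-Y binds. TTCGAA reads the same on both strands, and overlapping matches run together.
Tk1, chr11:117825965-117826264, minus strand: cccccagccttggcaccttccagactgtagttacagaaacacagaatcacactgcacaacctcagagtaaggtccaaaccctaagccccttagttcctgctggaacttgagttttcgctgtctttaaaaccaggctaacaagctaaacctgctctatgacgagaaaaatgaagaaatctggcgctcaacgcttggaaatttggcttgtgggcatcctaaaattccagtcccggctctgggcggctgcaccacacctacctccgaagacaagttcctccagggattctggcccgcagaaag
Rrm2, chr12:24708004-24708303, plus strand: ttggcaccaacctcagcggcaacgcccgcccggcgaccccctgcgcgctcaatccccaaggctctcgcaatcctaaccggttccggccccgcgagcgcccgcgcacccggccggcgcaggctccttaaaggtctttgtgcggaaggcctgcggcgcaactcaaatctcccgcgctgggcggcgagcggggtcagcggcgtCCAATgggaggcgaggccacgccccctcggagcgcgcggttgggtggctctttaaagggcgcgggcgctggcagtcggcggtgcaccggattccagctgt
Rrm1, chr7:102441445-102441744, plus strand: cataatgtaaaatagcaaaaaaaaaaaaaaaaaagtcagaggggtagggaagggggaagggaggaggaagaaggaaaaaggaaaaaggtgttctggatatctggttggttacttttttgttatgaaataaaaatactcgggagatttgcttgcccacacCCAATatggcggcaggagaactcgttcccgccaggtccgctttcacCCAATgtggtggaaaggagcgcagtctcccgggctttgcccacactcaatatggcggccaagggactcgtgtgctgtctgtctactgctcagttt
Mcm5, chr8:75109259-75109558, plus strand: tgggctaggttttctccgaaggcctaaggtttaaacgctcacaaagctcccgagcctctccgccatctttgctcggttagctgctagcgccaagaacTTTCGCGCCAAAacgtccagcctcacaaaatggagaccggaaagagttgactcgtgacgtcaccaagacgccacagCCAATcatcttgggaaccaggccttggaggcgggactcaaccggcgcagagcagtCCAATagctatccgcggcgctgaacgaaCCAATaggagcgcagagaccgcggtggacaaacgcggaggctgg
Bub1, chr2:127831810-127832109, minus strand: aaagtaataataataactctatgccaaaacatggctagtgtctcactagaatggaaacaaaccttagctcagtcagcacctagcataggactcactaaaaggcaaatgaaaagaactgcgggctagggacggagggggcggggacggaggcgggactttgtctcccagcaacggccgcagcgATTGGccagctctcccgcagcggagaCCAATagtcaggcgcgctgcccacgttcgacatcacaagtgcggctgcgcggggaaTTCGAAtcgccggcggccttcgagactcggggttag
Cenpe, chr3:135212313-135212612, plus strand: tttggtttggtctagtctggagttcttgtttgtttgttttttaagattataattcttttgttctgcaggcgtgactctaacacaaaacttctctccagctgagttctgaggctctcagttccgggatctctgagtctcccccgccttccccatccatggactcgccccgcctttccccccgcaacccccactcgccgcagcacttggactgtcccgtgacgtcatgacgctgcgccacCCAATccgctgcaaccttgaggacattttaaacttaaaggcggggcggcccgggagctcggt

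The windows of Tk1, Rrm2 and Rrm1 held none of the E2F or CHR letters, while Mcm5 held 2 overlapping E2F matches and 3 CCAAT. The RefSeq start differs from the table's for 5 of the 6 genes shown. That of Tk1 lies inside the gene as the table draws it, with the table's start at 117826092. That of Mcm5, at 75109509, lies before the table's start at 75109569, which its window does not reach. Of the 15 genes of G1, licensing and S phase with a window, 6 held E2F letters and 4 CHR letters. Of the 17 genes of G2 and mitosis with a window used, 1 held E2F letters and 13 CHR letters, and 15 held CCAAT, against 10 of the 15. Over all 27025 genes with windows of that length, with no chromosome left out, 2.6% held E2F letters, 21.7% CHR letters and 41.1% CCAAT. Such matches describe letters in these windows only.

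Further genes of the same pathway were read from 6 lists of 127 genes in all, of which 1 was called higher and 0 lower with TMM scaling. That is 0.787% called higher, against 2.52% of all tested genes. With library totals alone 0 were called higher and 9 lower, against 1.57% and 14.6% of all tested genes. Neither count stands above the background. The called gene was Wee1, the kinase that holds CDK1 inactive, at 29.7, 22.1 and 24.1 CPM in Cys52Ser replicates 1, 2 and 3, against 15.3, 16.9 and 16.4 CPM in WT replicates 1, 2 and 3 (log2 fold change 0.64, edgeR adjusted p = 0.0464). All of its Cys52Ser libraries lay above all WT libraries, but its call was lost with any of the 6 libraries left out, at log2 fold changes of 0.51 to 0.73 (edgeR adjusted p = 0.0528 to 0.135).

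Of 52 other mitotic genes, 40 had a positive log2 fold change, and 17 had one without Cys52Ser replicate 2. That library was the highest of 6 for 38 of them. Of 26 genes of polymerases, clamp loader and chromatin assembly, 0 were called and 24 had positive log2 fold changes, and 20 did without that library. Chaf1a, a subunit of the chromatin assembly factor, had the smallest p there, at 10.7, 19.9 and 18.1 CPM in Cys52Ser and 8.95, 9.27 and 7.22 CPM in WT (log2 fold change 0.94, edgeR adjusted p = 0.0744). Of 18 other licensing and helicase genes, 0 were called and 10 had positive log2 fold changes, led by Gins1, a partner of the helicase, at 6.45, 4.86 and 6.39 CPM in Cys52Ser and 2.69, 2.22 and 3.86 CPM in WT (log2 fold change 1.01, adjusted p = 0.0800).

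Of 18 genes of G1/S control, 0 were called, 10 had positive and 8 negative log2 fold changes. Cdk4, the partner of D-type cyclins, had the smallest p, at 62.1, 61.3 and 53.9 CPM in Cys52Ser and 76.9, 84.4 and 78.3 CPM in WT, with every Cys52Ser library lower (log2 fold change -0.43, edgeR adjusted p = 0.0563). Of 7 CDK inhibitors, 0 were called. Cdkn1a, the inhibitor p21 and a p53 target, was 44.8, 84.9 and 79.9 CPM in Cys52Ser and 30.9, 53.5 and 36.9 CPM in WT, with overlapping groups (log2 fold change 0.79, edgeR adjusted p = 0.170). Of 6 genes of MuvB and B-MYB, 0 were called, and Rbbp4 had the smallest p (log2 fold change 0.10, adjusted p = 0.584).

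Markers of the liver's cell types differed between the same libraries, and their part in the results above was not tested. All 8 hepatocyte markers were higher in every Cys52Ser library, with Cps1 and Hnf4a called, and their summed level was 113534 to 140139 CPM in Cys52Ser against 44340.1 to 73839.7 CPM in WT. Of 9 markers of lipid-associated and monocyte-derived macrophages, 5 were called lower (Cd9, Gpnmb, Trem2, Cd63 and Itgax), with sums of 743 to 921 CPM in Cys52Ser against 1789 to 3129 CPM in WT. Of 9 stellate cell and myofibroblast markers, 4 were called lower (Ngfr, Col3a1, Lrat and Dcn), with sums of 915 to 1075 CPM in Cys52Ser against 1474 to 2496 CPM in WT. Acta2, smooth muscle actin and the myofibroblast marker of that list, was singled out after its values were seen, at 16.5, 90.3 and 9.85 CPM in Cys52Ser and 18.4, 29.5 and 20.9 CPM in WT (log2 fold change 0.76, edgeR adjusted p = 0.674). Of the 9 markers, Acta2 alone was highest in Cys52Ser replicate 2, and its other Cys52Ser values lay below every WT library. Of 8 Kupffer cell markers, 3 were called higher (Cd163, Folr2 and Clec4f), with sums of 930.4 to 1202 CPM in Cys52Ser against 334 to 815 CPM in WT. Of 8 sinusoidal endothelial markers, 3 were called higher (Kdr, Dnase1l3 and Cdh5), with sums of 422 to 507 CPM in Cys52Ser against 332 to 397 CPM in WT.

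Markers of bile duct cells, lymphocytes, neutrophils and erythroid cells were also read. Of 7 cholangiocyte markers, Pkhd1 was called lower, with sums of 144 to 431 CPM in Cys52Ser against 619.8 to 1307 CPM in WT; 5 of the 7 were at least 2-fold higher in Cys52Ser replicate 2 than the mean of Cys52Ser replicates 1 and 3. Spp1, osteopontin, makes up most of these sums and is also in the macrophage list, at 141, 334 and 116 CPM in Cys52Ser and 1161, 617 and 558 CPM in WT. The other 6 markers summed to 27.9 to 96.3 CPM in Cys52Ser and 62.0 to 146 CPM in WT, with overlapping groups. Krt19, a keratin of bile duct cells, was 7.77, 61.6 and 5.61 CPM in Cys52Ser and 25.4, 13.8 and 12.1 CPM in WT (log2 fold change 0.55, edgeR adjusted p = 0.806). Of the 7 markers, Krt19 alone was highest in Cys52Ser replicate 2. In that library Spp1, Epcam, Pkhd1 and Cftr stayed below every WT library. Spp1 and Krt19 were singled out after their values were seen. Sums of 8 T and NK cell markers were 14.8 to 17.6 CPM in Cys52Ser and 12.6 to 14.9 CPM in WT, with Cd8a of smallest p (edgeR adjusted p = 0.182). Those of 6 B and plasma cell markers were 12.5 to 20.9 CPM in Cys52Ser and 15.2 to 16.7 CPM in WT, with Jchain of smallest p (adjusted p = 0.114). Those of 5 neutrophil markers were 15.6 to 29.6 CPM in Cys52Ser and 27.4 to 32.9 CPM in WT, with Csf3r of smallest p (adjusted p = 0.0921). Erythroid sums were 309 to 346 CPM in Cys52Ser against 159.8 to 271 CPM in WT, with Alas2 of smallest p (adjusted p = 0.106). None of the lymphocyte, neutrophil or erythroid markers tested was called.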

How the data were processed

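Liver RNA of 3 Cys52Ser and 3 WT mice was analysed, grouped by the titles, from poly(A)-selected, strand-marking paired-end libraries per the labels' protocols. Tools listed in the submitters' processing notes, with no role stated, are StringTie 1.3.4d, HISAT2 2.0.4, cutadapt 1.9, UMI-tools, edgeR and DESeq2. Those notes give mm9 as the genome, but coordinates are those of GRCm38, since 90.0% of 28524 identifiers shared with GENCODE M21 had identical ones. For each gene and library the authors deposited FPKM and an estimated count, as the file headers name them. Estimated counts were whole numbers; intervals cover only the spread between these mice. Every pair of libraries differed beyond sampling noise (chi-square per degree of freedom at least 86.9).

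Counts were tested with edgeR 4.0.16 in R 4.3.3 (filterByExpr with a minimum count of 10, TMM, robust quasi-likelihood fit, genotype as the only term), with Benjamini-Hochberg adjustment over 18648 genes at 0.05. The 19 alternatives included limma 3.58.1 on FPKM, DESeq2 1.42.0, other scaling and filters, and leaving out each library. The fit was tested on simulated data in which 200 genes were given differences larger than that of any member. That run does not show how well smaller differences are recovered. The members, lists and tests were chosen with earlier results of these data known. Members given in every library were those called, the 3 of smallest p per role group, Mki67, Top2a, Pcna, Ccnd1, Cdk1 and the extremes of fold change. Tyms and Foxm1 were added outside that rule. From other lists, called genes and the gene of smallest p were named, not all of them with values in every library. Of the members, 11 overlap a coding gene on the opposite strand, and their values are uncertain (Ccna2, Ccnd1, Ccne2, Cdc20, Cdc45, Kif20a, Mcm7, Nusap1, Prc1, Tk1 and Ube2c).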

Additional observations from a re-analysis of the deposited data

How the results depend on the processing

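Of the 2 calls, Tk1 and Rrm2 held under all 13 alternatives that kept the 6 libraries; their fold changes kept their sign in all 19. With libraries left out, the count of members called higher was 0 to 2, of genes called over all genes 28 to 790 and of pathway genes called 0 to 1, and the members' median ran from -0.12 to 0.41. Members called lower were 0 in all 19. DESeq2 called 4 members higher. Over all genes 3017 were called with library totals, 2493 with DESeq2, and 2820, 2908 and 2686 with limma on FPKM at pseudocounts of 0.5, 0.1 and 1. Pathway genes called were 0 with upper quartile factors, without robust estimation, with the replicate block and with limma on TMM-rescaled FPKM, 2 with RLE factors, 4 with a minimum mean CPM, 9 with library totals and with DESeq2, and 8, 9, 8 and 3 with limma at 0.5, 0.1, 1 and at 0.5 without filter. The members' median was -0.085, -0.13, -0.060 and -0.085 in those limma fits and -0.052 with library totals. Groups did not overlap for 3 members in FPKM and in CPM of the library total, comparisons added after seeing the data, against 5 in TMM-scaled CPM.

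Log2 fold changes that turned sign with library totals were Cdc45 (-0.20), Pcna (-0.16), Tyms (-0.0100), Ccnb1 (-0.17), Cdk1 (-0.044), Plk1 (-0.060), Aurkb (-0.10), Mki67 (-0.17), Top2a (-0.12), Tpx2 (-0.14), Kif11 (-0.14), Kif20a (-0.078), Ube2c (-0.15). With limma on log2(FPKM + 0.5), with and without filter, they were Cdc45 (-0.12), Pcna (-0.17), Tyms (-0.0080), Ccnb1 (-0.21), Cdk1 (-0.076), Plk1 (-0.16), Aurkb (-0.13), Mki67 (-0.23), Top2a (-0.19), Tpx2 (-0.21), Kif11 (-0.095), Kif20a (-0.22), Ube2c (-0.24). At a pseudocount of 0.1 they were Cdc45 (-0.16), Pcna (-0.17), Tyms (-0.010), Ccnb1 (-0.31), Cdk1 (-0.10), Foxm1 (-0.052), Plk1 (-0.22), Aurkb (-0.18), Mki67 (-0.31), Top2a (-0.25), Cenpe (-0.072), Tpx2 (-0.29), Kif11 (-0.15), Kif20a (-0.34), Ube2c (-0.31), and at 1 they were Cdc45 (-0.086), Pcna (-0.16), Tyms (-0.0063), Ccnb1 (-0.15), Cdk1 (-0.056), Plk1 (-0.11), Aurkb (-0.097), Mki67 (-0.17), Top2a (-0.14), Tpx2 (-0.15), Kif11 (-0.065), Kif20a (-0.15), Ube2c (-0.19). With RLE factors it was Birc5 (0.0049). With libraries left out 1 at a time, the ranges of those that turned sign were Ccne2 (-0.11 to 0.92), Cdc45 (-0.13 to 0.41), Ccna2 (-0.42 to 0.13), Ccnb1 (-0.47 to 0.40), Cdk1 (-0.048 to 0.43), Foxm1 (-0.41 to 0.91), Plk1 (-0.31 to 0.53), Aurkb (-0.18 to 0.38), Mki67 (-0.38 to 0.41), Top2a (-0.33 to 0.43), Bub1 (-0.17 to 0.97), Bub1b (-0.32 to 0.21), Cenpe (-0.40 to 0.76), Cenpf (-0.86 to 0.24), Birc5 (-0.31 to 0.16), Tpx2 (-0.43 to 0.45), Kif11 (-0.017 to 0.31), Kif20a (-0.62 to 0.53), Prc1 (-0.53 to 0.16), Cdc20 (-0.63 to 0.057), Ube2c (-0.50 to 0.43). Neither called gene was among them, and the cause was not tested.

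Replicate numbers match across genotypes, but the labels give no shared litter or batch. Deviations from the group means correlated at 0.0051, 0.17 and 0.06 for same-numbered libraries 1, 2 and 3. Cys52Ser replicates 2 and 3 correlated best with the WT library of the same number, and Cys52Ser replicate 1 with WT replicate 3 (0.16). Without a label for pairing, the numbers were not taken as pairs. Whether same-numbered libraries shared a batch cannot be told from the labels. With the replicate block, 2 members and 729 genes in all were called, and the members' median was 0.18; Ccnb1 (-0.0025), Kif20a (-0.030) turned sign.

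With 3 mice a group, the 95% intervals of all 22 genes of G2 and mitosis include 0, which does not show that they did not differ. Counts per member over the 6 libraries ran from 956 (Cdc6) to 95848 (Ccnd1).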

Other observations

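Further genes of deoxynucleotide supply were read in a list of 15 drawn up after Tk1 and Rrm2 had been seen, so it carries no test of its own. None was called over all genes (edgeR, adjusted p under 0.05), 10 had positive and 5 negative log2 fold changes, and their median was 0.11. Slc29a1, the nucleoside transporter ENT1, was 227, 204 and 264 CPM in Cys52Ser replicates 1, 2 and 3, against 135, 109 and 163 CPM in WT replicates 1, 2 and 3, with every Cys52Ser library above every WT library (log2 fold change 0.77, edgeR adjusted p = 0.0546). Tk2, the mitochondrial thymidine kinase, was 21.1, 17.3 and 19.5 CPM in Cys52Ser replicates 1, 2 and 3, against 27.3, 21.8 and 26.4 CPM in WT replicates 1, 2 and 3, lower in every Cys52Ser library (log2 fold change -0.38, adjusted p = 0.142). Rrm2b, the small reductase subunit that p53 induces outside S phase, was 4.92, 5.46 and 5.78 CPM in Cys52Ser replicates 1, 2 and 3, against 6.55, 7.18 and 6.24 CPM in WT replicates 1, 2 and 3, likewise without overlap (log2 fold change -0.30, adjusted p = 0.347). Cda, cytidine deaminase, was higher in every Cys52Ser library in CPM (log2 fold change 0.70, edgeR adjusted p = 0.124), while its groups overlapped in FPKM. Among all tested genes, groups did not overlap in CPM for 29.6%, so such separation is common. Dck, Dguok, Dtymk, Samhd1 and Cmpk1 lay within 0.12 of 0 on the log2 scale.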
